A study of Mus musculus with 2 samples.

Results

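Keratin genes were examined in total RNA from skeletal muscle of newborn mice. The members were chosen by symbol, as every protein-coding gene of the GENCODE M21 annotation named Krt with a number and an optional letter, and 53 such genes were found, all with a row in both gene tables, among 43346 gene rows in all. Krt74 and Krt8-ps were left out because they are annotated as pseudogenes. The samples form 1 group of 2 biological replicates of strain B6NCrl, taken on postnatal day 0 and described in the labels as pup 1 (replicate 1) and pup 2 (replicate 2) of the same pregnancy, with a shared donor entry. No treatment or allele is named, which muscle was dissected is not stated, the sex was not collected, and each library started from 10 ng of RNA longer than 200 nt. There is no comparison of conditions, so the keratins are described by their level in each library and by the ratio between the libraries. The family was taken up with its difference between the pups already known, so its ratios are a description and carry no test. With 1 library per pup, the spread between them can be biological or technical.

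Keratins are the intermediate filament proteins of epithelial cells. An acidic type I chain pairs with a basic or neutral type II chain to build the filament, and each kind of epithelium uses its own pairs. In epidermis the dividing basal layer makes Krt5 and Krt14, and cells that leave it switch to Krt1 and Krt10. Simple epithelia, which line ducts and body cavities as a single layer, make Krt8 and Krt18, while hair shafts and the sheaths around them have large sets of keratins of their own. Muscle fibres build their intermediate filaments mainly from desmin. Of the 53 genes, 27 lie on chromosome 11, which carries the type I cluster, and 26 on chromosome 15, which carries the type II cluster together with the type I gene Krt18.

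The gene tables summed to 40455042 expected counts (estimated reads per gene) for replicate 1 and 37151129 for replicate 2. Muscle was the main tissue in both. The 12 muscle markers had a summed level of 124584 and 135637 TPM (a level corrected for transcript length and library depth) in replicates 1 and 2. All 12 lay within 2-fold between the libraries, as did most genes. Of all genes with a mean of at least 10 counts, 4.95% were at least 2-fold higher in replicate 1 and 1.39% in replicate 2. Keratins were a small part of the RNA. They held 0.063% of the gene counts of replicate 1 (95% exact Clopper-Pearson interval 0.0622% to 0.0638%) and 0.00289% of replicate 2 (0.00272% to 0.00306%), a mean of 0.0329% with an SD of 0.0425 (n = 2). Summed over the family the level was 423 TPM in replicate 1 and 22.84 TPM in replicate 2. The intervals given here and below cover counting error only. Among the 53 keratins 34 had a count in either library and 19 had none in both, which allows up to 3 counts per library.

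In replicate 1 the family was led by epidermal keratins, and in replicate 2 by the simple epithelial pair. Krt1 stood at 164 TPM in replicate 1, above 96.5% of protein-coding genes, followed by Krt10 at 104, Krt14 at 58.3, Krt5 at 34.5, Krt15 at 16.9 and Krt17 at 13.3 TPM. Krt8 came next at 9.98 TPM and Krt18 at 4.37 TPM. In replicate 2 Krt8 led at 8.71 TPM, followed by Krt18 at 5.49, Krt10 at 3.79 and Krt80 at 1.35 TPM, and no other keratin reached 1 TPM. The number of keratins at 1 TPM or above was thus 15 in replicate 1 and 4 in replicate 2. Simple epithelial keratins made up 4.28% of the summed keratin TPM of replicate 1 and 65.3% of that of replicate 2, while basal and suprabasal keratins made up 25.9% and 64.8% in replicate 1 against 0.701% and 23.6% in replicate 2. The plot of counts by gene shows both libraries for each keratin with enough reads.

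**Figure D1:**
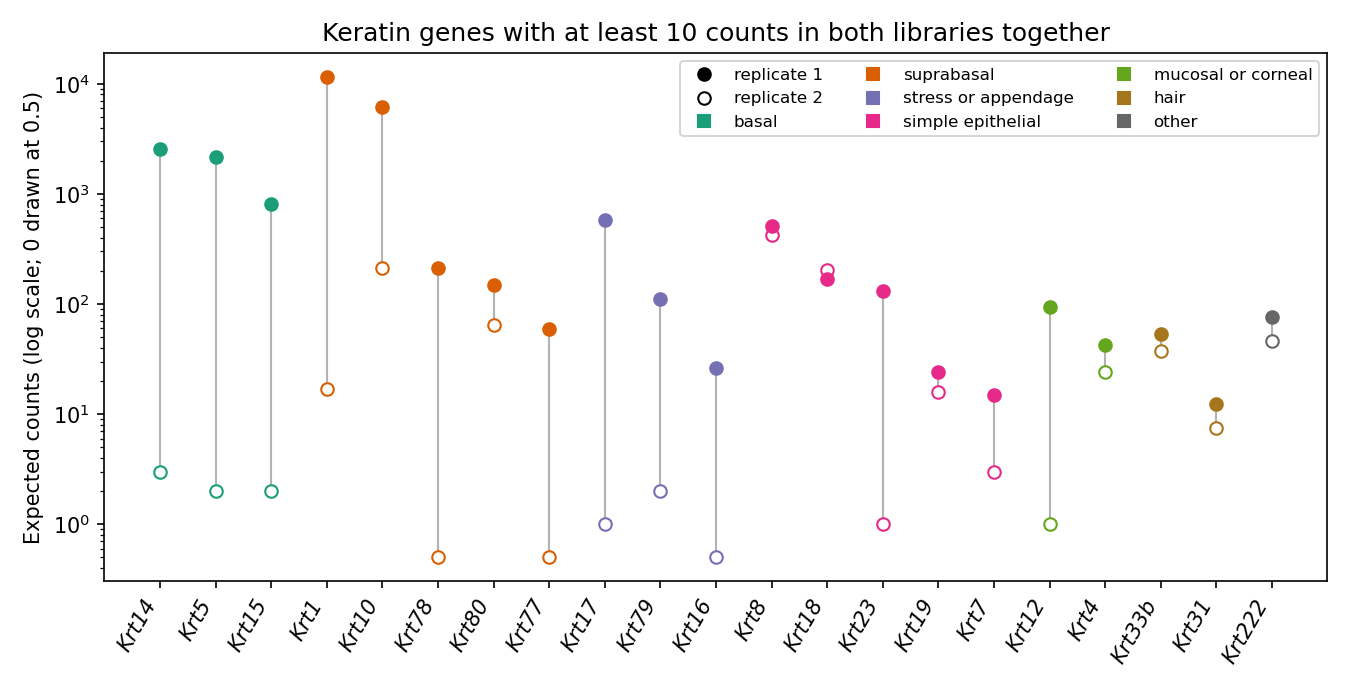
Expected counts (log axis, 0 drawn at 0.5) of each keratin with at least 10 counts summed over both libraries, by keratin group, with filled points for replicate 1 and open points for replicate 2. Krt1 stands at 11507 counts in the filled and 17 in the open point, while Krt8 stands at 509 and 420.

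Nearly all reads of the 3 basal keratins came from replicate 1. Krt5 (ENSMUSG00000061527, chromosome 15, 101707070 to 101712898, mm10), the type II chain of the basal layer, had 2158 expected counts in replicate 1 but 2 in the other library, or 34.5 and 0.03 TPM. Scaled for library size with TMM, this was a ratio of 931-fold (95% counting interval 257 to 7692). Its type I partner Krt14 (ENSMUSG00000045545, chromosome 11, 100203162 to 100207548) had 2533 and 3 counts, 729-fold (249 to 3535). Krt15, a further type I chain of basal cells and of hair follicle stem cells, had 808 and 2 counts, 349-fold (96.2 to 2883). All 3 basal keratins were thus high in the same library, and their summed level was 109.7 and 0.16 TPM. The ratio of Krt14 to Krt5 in TPM was 1.69 in replicate 1 and 2.33 in replicate 2, where it rests on 3 and 2 counts.

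The promoter sequences that could be read from the RefSeq table (GRCm38.p6, the build called mm10) are shown for keratins that differed between the libraries (Krt5, Krt10, Krt78, Krt23 and Krt77) and for Krt18, which was similar in both. Each is the stretch of 100 bases that ends just before the RefSeq start, on the strand of the gene, and the capitals mark TATAAA or ATAAAA, forms of the TATA box, where either lies in the last 40 bases.
Krt5, chr15:101712906-101713005, minus strand: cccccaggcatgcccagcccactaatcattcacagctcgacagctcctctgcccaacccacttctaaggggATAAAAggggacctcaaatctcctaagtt
Krt10, chr11:99389365-99389464, minus strand: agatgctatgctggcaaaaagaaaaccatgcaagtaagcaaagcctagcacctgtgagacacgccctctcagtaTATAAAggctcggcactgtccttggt
Krt78, chr15:101954288-101954387, minus strand: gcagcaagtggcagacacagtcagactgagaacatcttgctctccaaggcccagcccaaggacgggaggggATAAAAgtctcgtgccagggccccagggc
Krt23, chr11:99493121-99493220, minus strand: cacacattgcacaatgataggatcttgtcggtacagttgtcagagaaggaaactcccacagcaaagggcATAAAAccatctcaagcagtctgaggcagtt
Krt77, chr15:101869706-101869805, minus strand: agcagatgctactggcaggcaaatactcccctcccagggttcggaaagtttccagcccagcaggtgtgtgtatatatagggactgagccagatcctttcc
Krt18, chr15:102028116-102028215, plus strand: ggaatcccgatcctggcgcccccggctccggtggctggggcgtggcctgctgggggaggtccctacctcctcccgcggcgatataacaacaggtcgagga

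The first base of the marked motif lies 29 bases before the start in Krt5 and Krt78, 26 in Krt10 and 31 in Krt23. Krt77 and Krt18 hold neither form in this window. Other forms of the TATA box were not searched, and Krt77 holds the letters tatatata there and Krt18 the letters tataac. The RefSeq starts of Krt18 and Krt23 lie inside the GENCODE gene, so the last bases of both stretches are gene sequence on that annotation, which for Krt18 is most of the window searched. The table had an entry for 36 of the 53 keratins, and for 33 of them a start within 100 bases of the GENCODE gene start. Of these 33 promoters, 14 (42.4%) held TATAAA in the last 40 bases before the start, read on the strand of the gene, against 2.31% of all 32851 promoters in the table. With ATAAAA as a second form, a motif added after the sequences had been read and able to overlap the first, the counts were 21 (63.6%) and 3.48%. The keratins with a match included Krt5 and Krt10, high in replicate 1, and Krt25 and Krt71, at 0 in both libraries. Over the full 250 bases before the start and on both strands, GCCNNNGGC, the core bound by AP-2 factors, was found in 4 of 33 keratin promoters (12.1%) against 13.7% of all promoters, and TGANTCA, the AP-1 site, in 1 (3.03%) against 6.75%. A match describes the letters only.

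Suprabasal keratins differed more among themselves. Krt1 (ENSMUSG00000046834, chromosome 15, 101845426 to 101850794), the type II chain of the spinous layer, had 11507 counts in replicate 1 against 17 in the other library, 584-fold (365 to 1003). Its partner Krt10 (ENSMUSG00000019761, chromosome 11, 99385254 to 99389364) had 6204 and 214 counts, 25-fold (21.8 to 28.8). Both were higher in replicate 1, but their counting intervals do not meet. Krt10 stood at 0.634 times the TPM of Krt1 in replicate 1 and at 14.6 times in replicate 2. Krt10 shares 146 exonic bases with the antisense gene Gm11940, which had 5 counts in each library. Whether the counting used strand is not given in the sources used here. Krt78, a type II keratin of differentiating epidermis, had 210 and 0 counts, at least 60.4-fold higher in replicate 1 when 3 counts are taken as the floor of the other library. That bound leaves out the counting error of replicate 1, and the lower end of the 95% counting interval is 48.7-fold. Krt77 had 59 and 0 counts, at least 17-fold higher in replicate 1 by the same floor, with a lower interval end of 13.4-fold. Krt80, a type II chain found in many differentiating epithelia, was present in both at 150 and 64 counts, or 3 and 1.35 TPM (2.02-fold, 1.5 to 2.75). Krt9, the keratin of thick palm and sole skin, had 1 and 0 counts. Krt2, a late suprabasal keratin, had 0 in both.

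Keratins of stressed epidermis and of skin appendages were also found in replicate 1. Krt17, which appears in hair follicles and in wounded epidermis, had 576 and 1 counts, or 13.3 and 0.02 TPM (497-fold, 88.8 to 19663). Krt79, a keratin of the upper hair follicle and the sebaceous duct, had 110 and 2 counts (47.5-fold, 12.8 to 397). Krt16 had 26 and 0 counts, at least 7.48-fold higher in replicate 1 by the floor of 3 counts, with a lower interval end of 5.66-fold. None of these 3 had more than 2 counts in replicate 2. The rest of the group had few reads in either library. The wound keratins Krt6a and Krt6b had 1.03 and 0 counts in replicate 1 and 0 in replicate 2, Krt75 had 2 and 0, and Krt42 had 0 in both. Of the stretches of 50 bases in the annotated transcripts of Krt16, 37.6% also occur in other genes, as do 57.2% of those of Krt6a and 50.1% of those of Krt6b. Their counts therefore depend on how shared reads were split. For Krt14 the share is 13.9% and for Krt17 4%, and the posterior SD of the counts of Krt14 was 1.11 reads in replicate 1.

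**Figure D2:**
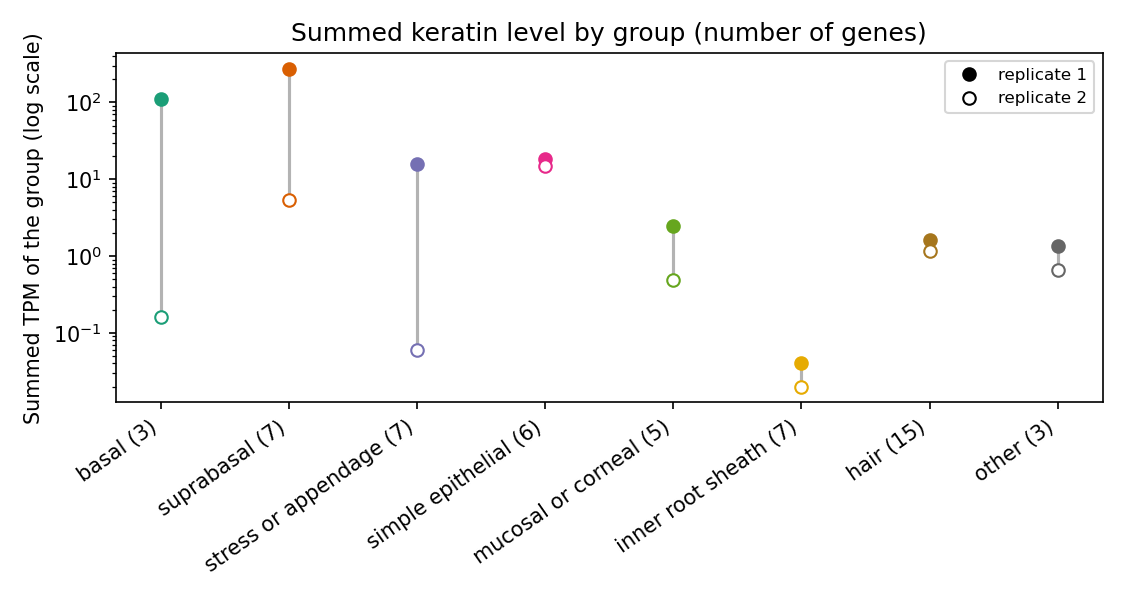
Summed TPM (log axis) of each keratin group, with the number of genes in brackets, filled for replicate 1 and open for replicate 2. Basal keratins stand at 109.7 and 0.16 TPM, whereas simple epithelial keratins stand at 18.12 and 14.91 TPM.

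Most reads of the simple epithelial keratins came from Krt8 and Krt18, which were found in both libraries. Krt8 (ENSMUSG00000049382, chromosome 15, 101996698 to 102004482), the type II chain of simple epithelia, had 509 and 420 counts, or 9.35 ± 0.898 TPM (SD, n = 2), and its ratio was 1.05-fold (0.917 to 1.19). Its partner Krt18 (ENSMUSG00000023043, chromosome 15, 102028180 to 102032027) had 170 and 202 counts, 4.93 ± 0.792 TPM, and was lower in replicate 1 at 0.726-fold (0.589 to 0.895). The interval of Krt8 spans equal levels and that of Krt18 does not, although counting error leaves out the variation between animals. The ratio of Krt18 to Krt8 was 0.438 in replicate 1 and 0.63 in replicate 2. Krt19, a type I chain of ducts and of the periderm, was low and similar at 24 and 16 counts (1.29-fold, 0.66 to 2.61). Krt23 went with the epidermal keratins instead, at 131 and 1 counts (113-fold, 19.9 to 4498). Krt7 had 15 and 3 counts and Krt20, found in gut and in Merkel cells, 6 and 2. In Krt7 the TPM went the other way, at 0.13 and 0.2. All of its reads in replicate 1 were assigned to a transcript of 4094 nt and all of those in replicate 2 to one of 642 nt.

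Sequence shared with other genes varied among the simple keratins. In all, 0.7% of the stretches of 50 bases of Krt18 occur elsewhere in the annotation. For Krt8 it is 29.7%, of which most lie in its processed pseudogene Krt8-ps, which was not analysed here. For Krt23 and Krt19 the share is 0%.

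Hair keratins and those of the inner root sheath, which wraps the growing hair, had few reads. Of 15 hair keratins 9 had 0 counts in both libraries, and of 7 inner root sheath keratins 6 did, with Krt28 at 2 and 1 counts. The exception was Krt33b (ENSMUSG00000057723, chromosome 11, 100023634 to 100029868), with 53.7 expected counts in replicate 1 and 37.5 in replicate 2, or 1.05 ± 0.226 TPM, a ratio of 1.26-fold (0.814 to 1.97). Its near copy Krt31 had 12.3 and 7.51 counts. Both were found in the 2 libraries at similar levels, unlike the epidermal keratins. Of the stretches of 50 bases of Krt33b, 24.2% occur in other genes, most of them in Krt34, and 28.1% of those of Krt31 do, so the split of reads among these genes is uncertain. The posterior SD of the count was 1.12 reads for each of Krt33b and Krt31 in replicate 1 and 0.71 in replicate 2, which is small beside the counts of Krt33b. The remaining hair keratins with reads, Krt35, Krt36, Krt87 and Krt33a, had 3 counts or fewer. The keratin-associated proteins, which cross-link hair keratins, were also near 0, with 51 of 56 genes at 0 in both libraries and 12 and 2 counts in all.

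Keratins of mucosa and cornea were low. Krt12, known as the keratin of the corneal epithelium, had 94 and 1 counts, or 1.79 and 0.02 TPM (81.1-fold, 14.2 to 3237). It shares 1007 exonic bases with the antisense gene A830036E02Rik, which had 0 counts in both. Krt4, a keratin of oral and oesophageal lining, was found in both at 42 and 24 counts (1.51-fold, 0.894 to 2.61), while its usual partner Krt13 had 0 and 2 counts. Krt24 had 1 and 0, and Krt76 had 0 in both. Of the 3 genes outside these groups, Krt222 had 76 and 46 counts, 0.975 ± 0.46 TPM (1.43-fold, 0.976 to 2.1), Krt90 had 2 and 0, and Krt88 had 1 and 0.

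Across the family, 19 of the 53 keratins had a mean of at least 10 counts, and 10 of these had fewer than 10 counts in replicate 2, so they passed only through replicate 1. Of the 19, 12 were at least 2-fold higher in replicate 1, where 4.95% of the 17004 genes with that many counts were, and the same 12 were at least 10-fold higher, against 1.41% of genes. These calls use log2 values with a prior count, so Krt16 counts as 10-fold although its bound from the floor is 7.48-fold. None was at least 2-fold higher in replicate 2, against 1.39% of genes. The other 7 (Krt80, Krt4, Krt222, Krt19, Krt33b, Krt8 and Krt18) lay within 2-fold on that log2 scale. Krt80 sits at the limit, with a log2 ratio of 1.00 after rounding and a ratio of 2.02-fold from its counts without the prior count. On the log2 scale the 19 had a median ratio of 4.65, and all 17004 genes one of 0.01. It is 4.63 with genes at 0 placed at their bound. The 8 basal and suprabasal keratins that passed had a median of 7.06 and the 4 simple ones 0.20, a difference of 6.86 on the log2 scale. These medians include genes that could pass only by being high in replicate 1, and they are no support for the difference. The plot of folds by gene separates the 12 from the other 7.

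**Figure D3:**
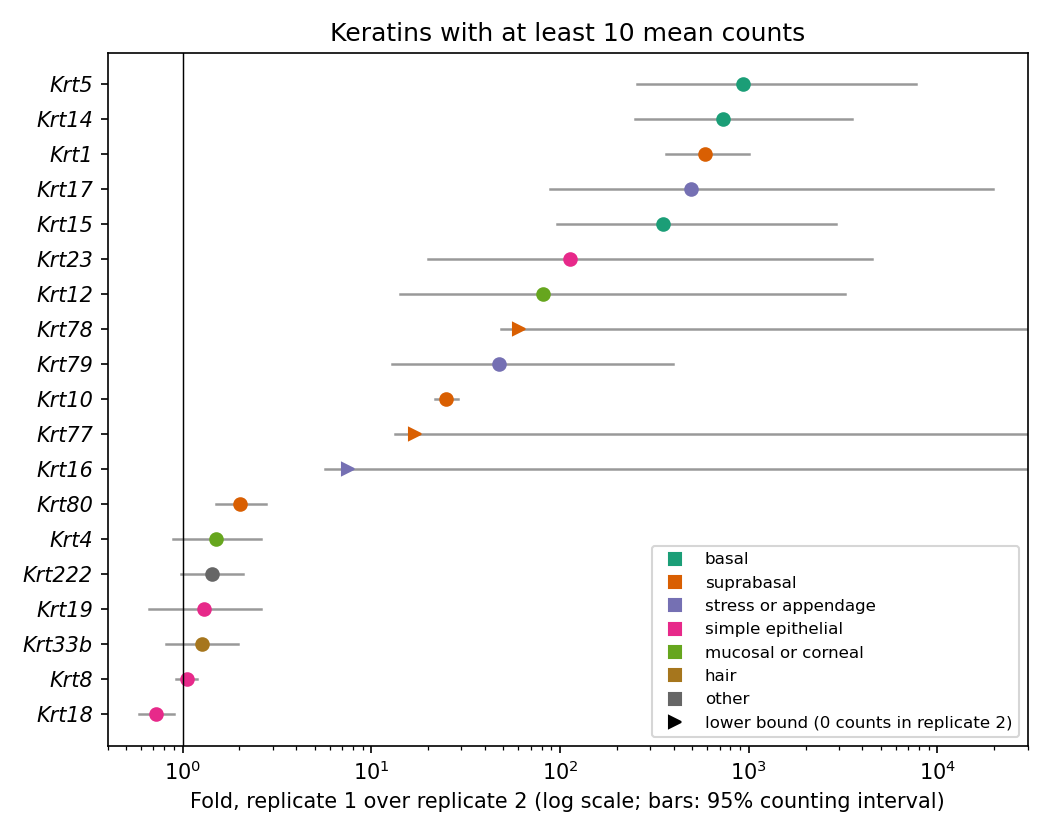
Fold of replicate 1 over replicate 2 (log axis) for the 19 keratins with at least 10 mean counts, with 95% counting intervals as bars, and triangles at the bound from a floor of 3 counts where replicate 2 had 0 counts, in which case the bar starts below the triangle and has no upper end. From Krt16 upward the bounds and folds lie at 7.48 or more, and from Krt80 downward at 2.02 or less.

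The summed levels of type I and type II chains were close to each other in both libraries, although their makeup differed. Type I keratins summed to 205.8 TPM and type II to 217.1 TPM in replicate 1, and to 11.81 and 11.03 TPM in replicate 2. The log2 ratio of type I to type II was -0.08 in replicate 1 and 0.10 in replicate 2, a mean of 0.01 ± 0.12 (SD, n = 2). In replicate 1 the sums were led by Krt10 and Krt14 against Krt1 and Krt5, and in replicate 2 by Krt18 and Krt10 against Krt8. In expected counts, which are not corrected for length, the mean was -0.22.

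Most keratins were quantified from a single transcript. Of the 53 genes 38 had 1 transcript in the tables and 15 had more. Krt14 was split between its coding transcript, with 74.67% of its TPM in replicate 1, and a processed transcript with 25.33%. All of the 808 counts of Krt15 in replicate 1 were in its coding transcript.

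Of the 12429 genes with a mean of at least 100 counts, 10 were keratins. They were spread from near the top to near the bottom of the ratio of replicate 1 over replicate 2. Krt1, Krt5 and Krt14 ranked 4, 5 and 6, Krt15 11 and Krt17 13. Further down, Krt78 ranked 27, Krt10 58 and Krt80 286, while Krt8 ranked 5033 and Krt18 12080. At least 100-fold higher in replicate 1 were 5 of the 10 keratins, beside 26 of all 12429 genes. Outside the family, the 10 coding genes highest by this ratio included Lor and Hrnr, components of the cornified envelope of the skin surface (3393 and 2, and 640 and 0 counts). They also included Casp14, a protease of cornifying keratinocytes (481 and 0), and Calm4, a calcium-binding protein of epidermis (2605 and 2). The 5 keratins at least 100-fold higher had 1 to 17 counts in replicate 2. They and the genes named here thus passed the minimum of 100 only through replicate 1. The family was chosen with its ratio known, so these ranks are a description and no support for the difference.

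**Figure D4:**
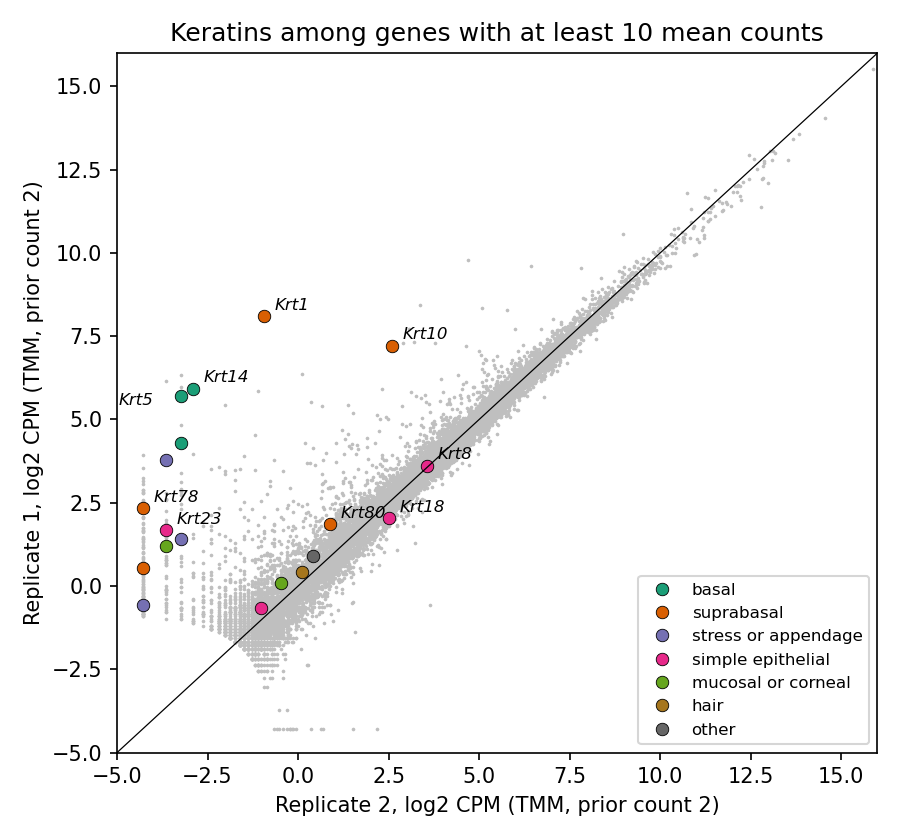
Log2 CPM (counts scaled to library size by TMM, prior count 2) of replicate 1 against replicate 2 for 17004 genes with at least 10 mean counts, with keratins coloured by group and a line of equal level. Krt1 lies 9.04 above the line, Krt10 4.63 and Krt8 0.06.

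The label of a skin signal was set against other markers of epidermis, with keratins taken out of each list. The 13 cornified layer genes had a summed level of 101 TPM in replicate 1 and 0.85 TPM in replicate 2. Of these, 10 had at least 10 mean counts and all 10 were at least 2-fold higher in replicate 1, against 4.95% of all genes, but 8 of the 10 passed only through replicate 1, so that count was largely set by the filter. Casp14, Flg, Flg2, Hrnr, Lce1a1 and Sprr1b were at 0 in replicate 2, and Flg had only 20 counts in replicate 1. The rest had reads in replicate 2, among them Tgm1 (129 and 21 counts), Aspg (35 and 14) and Calml3 (68 and 7). Lor had 3393 and 2 counts, Ivl 204 and 2, Tgm3 17 and 1, and Sprr1a 1 and 2. Of the desmosome, the junction to which keratin filaments attach, 9 of 14 such genes were at least 2-fold higher in replicate 1, against the same 4.95%, and 8 of the 14 passed only through replicate 1, among them Dsp, which binds the filaments (431 and 7 counts), Pkp1 (459 and 7) and Dsg1a (313 and 2). Perp, with 2500 and 178 counts (12.1-fold, 10.4 to 14.2), was also among the 9 but had reads in both libraries. The other 5 lay within 2-fold on the log2 scale. They were Jup and Pkp4, which are not particular to epidermis, Pkp2 (50 and 57 counts), Dsc2 (43 and 34) and Dsg2 (16 and 6), which sits at the limit. Genes of the hemidesmosome, which anchors basal keratins to the basement membrane, were at similar levels in both libraries. Of 9, 1 was at least 2-fold higher in replicate 1, against the same 4.95%, while Itgb4 (309 and 218 counts) and Col17a1 (350 and 271) were found in both libraries. Trp63, the master regulator of basal keratinocytes, had 523 and 316 counts (1.43-fold, 1.24 to 1.65). Of 13 epidermal factors with 10 mean counts 8 were at least 2-fold higher in replicate 1, again beside 4.95% of all genes, and 5 of the 13 passed only through replicate 1, including Grhl3 (57 and 0 counts). Replicate 2 thus held basal markers other than keratins at levels near those of replicate 1, with 7 counts in all for the 3 basal keratins.

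Markers of fat and cartilage differed in the same direction as the epidermal keratins. All 9 adipocyte markers were at least 2-fold higher in replicate 1, where 4.95% of all genes were, with a summed level of 5127 and 899.3 TPM. So were all 9 cartilage markers, at 60.06 and 6.3 TPM, of which 2 passed only through replicate 1. Dermal fibroblast markers summed to 6340 and 4552 TPM, and 1 of 10 was at least 2-fold higher in replicate 1, beside 4.95% of all genes. In a list this short, 1 call cannot be told from that share. Mesothelium is a simple epithelium that makes Krt8 and Krt18. Its 7 markers summed to 4.7 and 5.56 TPM, and 4 of them had 10 mean counts. Those 4 lay within 2-fold on the log2 scale, with a median log2 ratio of -0.43. Most genes lay within 2-fold, as 4.95% were at least 2-fold higher in replicate 1 and 1.39% in replicate 2. Gpm6a (165 and 152 counts) and Msln (71 and 52) were closer to equal. Upk1b (75 and 112) and Wt1 (12 and 21, 0.493-fold without the prior count) had more counts in replicate 2. Below the filter, Upk3b had 2 and 14 counts, Lrrn4 8 and 2, and Bnc1 7 and 4. The part of these tissues in the keratin levels was not tested. In bulk tissue, fewer cells of a type and less RNA per cell cannot be told apart.

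**Figure D5:**
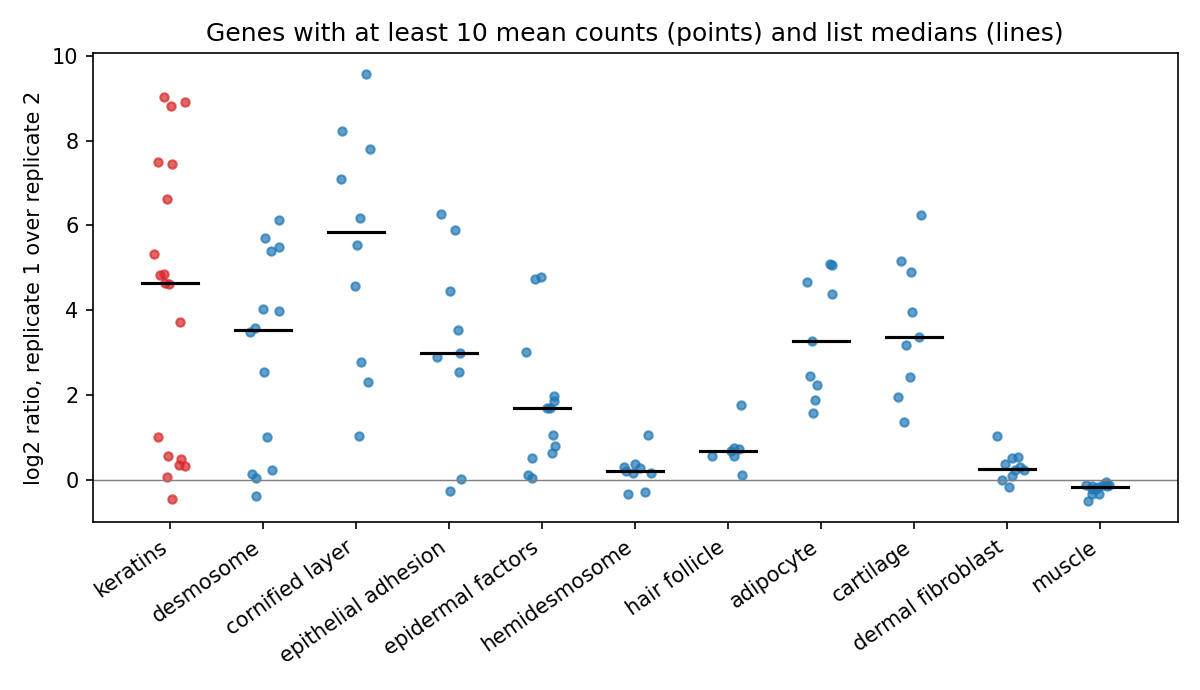
Log2 ratio of replicate 1 over replicate 2 for genes with at least 10 mean counts (points, spread sideways at random) and the list median (line), for keratins in red and other lists in blue. The median is 4.65 for keratins, 3.54 for desmosome genes and 0.19 for hemidesmosome genes.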

How the data were processed

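RNA was sequenced as total RNA, per the labels. The deposited tables used mm10 and GENCODE M4, per the files that accompany them, while the sources used here do not name the aligner or the quantifier. The authors deposited expected counts (estimated counts, split between genes that share reads), their posterior means, and TPM, per the file headers. They also deposited the share of each transcript in its gene's TPM, in percent, and a posterior SD of the count, treated as a score, per the file headers. Names and positions came from GENCODE M21, which matched 42462 of 43346 gene IDs. The 26248 rows with a number for an ID and the 97 spike-in rows were left out of gene totals.

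Expected counts were rounded, given TMM factors (edgeR 4.0.16 under R 4.3.3), and log2 CPM used a prior count of 2. Folds are TMM-scaled count ratios, whose exact 95% intervals (Clopper-Pearson) take the sum of both counts as given. Without molecular identifiers, PCR copies cannot be told from separate molecules, so intervals cover counting error only. The floor for a count of 0 was 3 counts per library. There was no test, as there is 1 library per pup. The ratio step was checked on simulated data. Keratins with at least 10 mean counts are named. From other lists the 4 genes of highest mean TPM could be named, and the 10 coding genes of largest ratio. Dsp, Dsg1a, Grhl3, Flg, Foxn1, Hoxc13, Pou4f3 and the keratins with fewer counts were named outside this rule and chosen after their values were seen. The same holds for further members named from the cornified layer, desmosome, mesothelium and hair follicle lists. Members and lists were chosen with earlier results of these data known. Alternatives covered scaling (DESeq2 1.42.0 size factors, total counts, spike-ins), filters, prior counts, posterior means, TPM, the fold limit and leaving out each replicate. Tables and figures were made in Python 3.11.15 (pandas 2.3.3, numpy 2.4.6, matplotlib 3.10.9, scipy 1.17.1).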

Additional observations from a re-analysis of the deposited data

How the results depend on the processing

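Under the alternatives run, no keratin that was at least 2-fold higher in replicate 1 changed direction, and Krt18 was lower in replicate 1 under all 9 settings. The median log2 ratio of 4.65 was 0.91 over the 34 keratins with any count, where keratins of a few counts entered, and 1.45 in TPM with a pseudocount of 1, under which Krt16 and Krt77 fell below the 2-fold limit. It was higher, at 7.04, with a minimum of 100 mean counts and at 5.63 with a prior count of 0.5. With the minimum of 100, 7 of 10 keratins were at least 2-fold higher in replicate 1, since fewer genes were tested. The difference between epidermal and simple keratins was 4.13 in TPM with a pseudocount of 1 and 8.17 with a prior count of 0.5. The log2 ratio of type I to type II was -0.22 in expected counts. Krt80, with a log2 ratio of 0.77 to 1.24, passed the 2-fold limit under total counts, spike-ins, a prior count of 0.5 and TPM with a pseudocount of 0.1, each of which made 13 keratins in place of 12. Scaling by total counts or by spike-ins moved the median of all genes to 0.10 and 0.26. The spike-ins had 406 and 416 counts. Leaving out a replicate gave a keratin share of 0.00289% to 0.063% of counts and a type I to type II log2 ratio of -0.08 to 0.10. Leaving out either replicate leaves no ratio between them. No paired analysis was possible because there is 1 group. Folds of keratins with 1 to 3 counts in replicate 2 are limited by depth.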

Other observations

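Markers of other cells of the skin were mostly low. Of 7 melanocyte markers 2 had at least 10 mean counts, Pmel with 86 and 81 counts and Dct with 79 and 43 in replicates 1 and 2, and both lay within 2-fold. Of 7 sebaceous markers 4 had that many counts, 2 of them only through replicate 1. Of the 4, 1 was at least 2-fold higher in replicate 1, Elovl3 (27 and 6 counts), which passed only through that library. Of 5 markers of Merkel cells, the touch cells of the epidermis that make Krt20, 2 had at least 10 mean counts: Piezo2, a touch channel also made by other cells, with 521 and 433 counts, and Isl1 with 54 and 16, which was at least 2-fold higher in replicate 1. The defining factor Atoh1 had 2 and 0 counts and Pou4f3 had 0 in both. Of 11 hair follicle markers 7 had at least 10 mean counts, 2 of them only through replicate 1. Of the 7, 1 was at least 2-fold higher in replicate 1, Lhx2 (17 and 3 counts), which passed only through that library. Foxn1 and Hoxc13, regulators of hair keratins, had 5 and 0, and 3 and 3 counts. Among all genes with 10 mean counts 4.95% were at least 2-fold higher in replicate 1. In lists this short, 1 call cannot be told from that share.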
